A study of Macaca mulatta with 4 samples.

Results

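The genes described here encode the enzymes of glycolysis and the pentose phosphate pathway and the regulators that stand at their branch points, in RF/6A, a chorioretinal line derived from the rhesus macaque, Macaca mulatta. They were chosen as a list of 39 gene symbols, and 35 of them were paired with a row of the deposited table, which holds 21314 rows in all. TPI1, PGAM2, ENO1 and PKM matched no row by symbol and were not analysed here. They may lie among the 6660 rows without a symbol. LDHB matched 2 rows, which were summed. All 4 libraries belong to 1 group: RF/6A cells in medium with heat-inactivated serum and antibiotics, titled static, with no treatment and no genetic change in the labels. The series asked whether this line, long used as a model of endothelium, behaves as endothelial cells do. No second condition was analysed, so the comparisons here are between isoforms of a step within each library and between libraries. The labels do not say whether separate cultures were used, and every SD and p-value covers only the spread between these 4 samples, which may be technical.

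Glycolysis splits glucose into pyruvate in the cytosol, and several of its steps are carried out by isoforms from separate genes that differ in tissue distribution and in regulation. The committed step is that of phosphofructokinase, and the PFKFB enzymes set the level of fructose 2,6-bisphosphate, its main activator. Pyruvate is then reduced to lactate or enters mitochondria, and the pentose phosphate pathway branches off at glucose 6-phosphate to make NADPH and ribose. Endothelial cells are known for relying on glycolysis for most of their ATP, and PFKFB3 is known as its activator during vessel sprouting.

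Each library held between 20366946 and 20550610 estimated counts. Library 2 stood apart from the other 3. Dixon's gap test asks whether the most extreme value lies apart from the nearest of the rest, and is passed by chance in about 1 in 20 groups. By it, library 2 was the outlying library for 33.1% of the 12453 genes with a mean of at least 1 count-per-million (CPM, under trimmed mean of M-values or TMM scaling). Cytosolic ribosomal protein genes took 16.2% of its counts, against 6.48% to 7.12% in libraries 1, 3 and 4. Results that rest on it are therefore given with its own value beside those of the others, or with and without it, on the same 4-library scaling unless stated. All 8 fibroblast and mesenchymal marker genes measured reached 1 CPM in every library, FN1 among them at 11099 ± 5330 CPM (SD, n = 4), or 13722 ± 1147 CPM without library 2. So did PECAM1 of 7 endothelial markers, and 2 of 3 retinal pigment epithelium markers, RPE65 and BEST1. Levels were low for PECAM1 and RPE65, and for BEST1 in library 2 only. PECAM1 measured 2.05 to 3.41 CPM and RPE65 1.18 to 2.04 CPM over the 4 libraries. BEST1 measured 1.48 CPM in library 2 and 15.1 to 29.8 CPM in the others. Without TMM, RPE65 fell to 0.979 CPM in library 2. KDR, an endothelial growth factor receptor named after its values were seen, measured 0.432 CPM in library 2 and 1.49 to 2.50 CPM in the others. CDH5, the cadherin of endothelial junctions, averaged 0.601 CPM and VWF 0.432 CPM. Neither photoreceptor marker with a row, NRL and SAG, reached 1 CPM in any library.

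Most of the pathway was expressed. Of the 35 members, 29 (82.9%) reached 1 CPM in every library, against 52.9% of all 21314 rows and 64.2% of those with a symbol. The median member lay at 5.40 ± 0.17 log2(CPM + 0.5) (SD, n = 4), against 3.13 ± 0.22 for the 17534 rows detected in 1 library or more, and without library 2 at 5.34 ± 0.13, against 3.24 ± 0.01. The 6 members not called expressed were HK3, PFKFB1, PFKFB2, PFKFB3, PKLR and PDK4. Without library 2, PFKFB2, PFKFB3 and PKLR reached 1 CPM in the 3 libraries left, once these were scaled anew, and the count was 32, against 56.4% of all rows. PFKFB3 in library 4 (0.950 CPM) and PKLR in library 1 (0.955 CPM) were just short of it on the 4-library scaling. No transcript lengths were at hand to divide the counts by, and levels are therefore not ranked between genes.

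**Figure D1:**
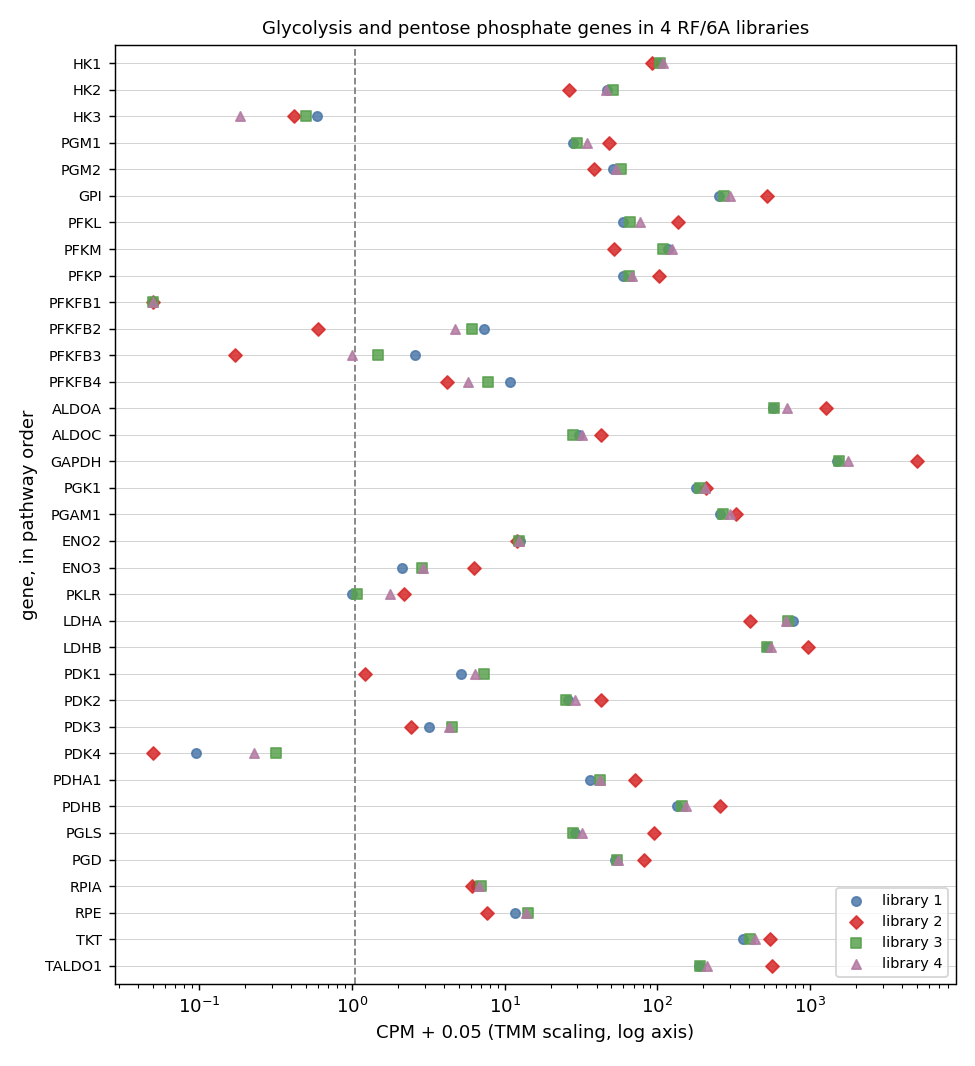
The 35 members with a row run down the page in pathway order, and the log axis gives CPM + 0.05, with 1 point for each RF/6A library and a dashed line at 1 CPM. PFKFB1 has no count, HK3 and PDK4 lie left of the line in every library, and library 2 (red diamonds) lies to the right of the other libraries for GAPDH, PGLS and TALDO1 and to their left for PFKM, PFKFB2, LDHA and PDK1.

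Hexokinase traps glucose in the cell as glucose 6-phosphate. HK1, the widely expressed form that binds mitochondria, measured 102, 92.0, 104 and 109 CPM in libraries 1 to 4. HK2, the insulin- and hypoxia-inducible form also known from tumours, measured 46.7, 26.2, 50.9 and 46.3 CPM. Library 2 was the lowest for both genes, by less for HK1 than for HK2. HK3, a form known from myeloid cells, had 12, 6, 10 and 3 counts and stayed below 1 CPM throughout. Of all hexokinase counts, HK2 held 22.1% in library 2 (95% exact binomial interval 20.3% to 24.04%, counting error only), against 29.8% to 32.7% in the others. The log2 count ratio of HK2 over HK1 was -1.30 ± 0.35 (SD, n = 4) and -1.13 ± 0.10 without library 2, and it was negative in 4 of 4 libraries. That ratio is of counts, not of molecules. The difference of a ratio between libraries is free of the lengths only if the transcripts in use stay the same and length acts alike in every library. Neither condition was tested.

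Phosphoglucomutase links glycogen to glucose 6-phosphate, and GPI turns glucose 6-phosphate into fructose 6-phosphate. PGM1, the main glycogen-linked form, measured 47.9 CPM in library 2 and 28.0 to 34.5 CPM in the others, while PGM2, which also acts on pentose phosphates, measured 38.3 CPM in library 2 and 51.2 to 58.2 CPM in the others. The order of the 2 genes in counts was thus reversed: PGM1 held 55.5% of their summed counts in library 2 (95% exact interval 52.9% to 58.2%), against 33.8% to 39.3%. GPI measured 255, 522, 272 and 298 CPM in libraries 1 to 4, and library 2 lay apart from the rest by the gap test. With plain CPM, that is without TMM, GPI in library 2 no longer passed it.

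Phosphofructokinase, the main point of control, is a tetramer of subunits from 3 genes, and their mix differed between library 2 and the rest. PFKM, the form that skeletal muscle uses alone, measured 117, 52.1, 109 and 125 CPM in libraries 1 to 4. PFKL, the liver-type subunit, measured 59.96, 136.5, 66.2 and 76.8 CPM. PFKP, the platelet-type subunit, measured 59.6, 102, 65.05 and 68.4 CPM. Libraries 1, 3 and 4 were close to each other for all 3 genes, and library 2 lay below them for PFKM and above them for PFKL and PFKP. PFKM held 17.9% of the family's counts in library 2 (95% exact interval 16.8% to 19.05%) and 47.1% ± 2.12 in the others (SD, n = 3), whereas PFKL held 46.96% in library 2 and 27.1% ± 1.59 in the others. The log2 count ratio of PFKM over PFKL was -1.39 in library 2 and 0.80 ± 0.15 without it, and that of PFKP over PFKM was 0.97 in library 2 and -0.86 ± 0.11 without it. Both ratios had library 2 apart by the gap test. Over 4 libraries the ratios averaged 0.25 ± 1.10 and -0.41 ± 0.92, and neither had the same sign in every library.

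The PFKFB genes encode bifunctional enzymes that make and degrade fructose 2,6-bisphosphate. PFKFB1, the liver and muscle form, had no count. A count of 0 leaves room for 0.135 to 0.185 CPM in a library (3 counts, counting error only). PFKFB3, the form with the highest kinase activity, had 56, 2, 32 and 21 counts in libraries 1 to 4, or 2.55, 0.123, 1.44 and 0.950 CPM. PFKFB2, the heart form, measured 7.23, 0.555, 6.11 and 4.70 CPM, and PFKFB4, known from testis and as hypoxia-inducible, 10.8, 4.13, 7.77 and 5.70 CPM. All 3 detected genes were highest in library 1 and lowest in library 2. The mean of PFKFB3 was 1.26 ± 1.01 CPM (SD, n = 4), and 1.65 ± 0.82 CPM without library 2. PFKFB4 held 85.9% of the 78 PFKFB counts in library 2 (95% exact interval 76.2% to 92.7%), against 50.2% to 52.5% in the others. The log2 count ratio of PFKFB3 over PFKFB2 was -1.94 ± 0.33 over 4 libraries and -1.95 ± 0.41 without library 2, and that of PFKFB3 over PFKFB4 was -2.95 ± 1.22 over 4 libraries and -2.35 ± 0.25 without library 2.

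In the lower part of the pathway aldolase cleaves fructose 1,6-bisphosphate. ALDOA, the muscle and general form, measured 575, 1277, 581 and 703 CPM in libraries 1 to 4, and ALDOC, the brain form, 30.9, 42.6, 28.03 and 32.02 CPM. ALDOA took 94.9% to 96.8% of their summed counts in every library. GAPDH, the dehydrogenase that yields NADH and is often used to normalise expression, measured 1498, 5028, 1534 and 1771 CPM. Library 2 was highest for it by a wide margin, and the mean was 2458 ± 1718 CPM over 4 libraries (SD) and 1601 ± 148 CPM without library 2. PGK1, which makes the first ATP of the pathway, measured 178, 209.5, 191 and 205.5 CPM, and PGAM1, the general phosphoglycerate mutase, 258, 328, 270.4 and 298 CPM. For these neighbours of GAPDH the place of library 2 turned with the scaling: its log2 ratio to the mean of the others was 0.13 for PGK1 and 0.25 for PGAM1 with TMM, and -0.31 and -0.19 with plain CPM. The count ratio of GAPDH over PGK1, chosen after the values were seen, was 24.0 in library 2 and 8.03 to 8.62 in the others.

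Of the enolases only the tissue-restricted forms were matched to a row by symbol, and ENO1 may lie in a row without a symbol. ENO2, the neuronal form that other cells also make, measured 12.6, 12.03, 12.4 and 12.4 CPM, with a coefficient of variation (CV) of 1.85% that was the lowest of the 29 expressed members, although with plain CPM library 2 lay apart and low for it. ENO3, the muscle form, measured 2.09, 6.29, 2.83 and 2.89 CPM. PKLR, the pyruvate kinase of liver and red cells, had 21, 35, 23 and 38 counts, or 0.955 to 2.16 CPM. Haemoglobin alpha (HBA), a red cell marker, measured 29.3 CPM in library 2 against 4.81 to 6.02 CPM, while ALAS2, another red cell marker, had no count. The 5 skeletal muscle markers summed to 10.3 CPM in library 2, mostly DES, against 4.14 to 5.16 CPM, with MYH7 and MYOG at 0. The part of such cells in these values was not tested, and in bulk RNA fewer cells of a type cannot be told apart from less RNA per cell.

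Lactate dehydrogenase showed a reversal between libraries. LDHA, whose subunit favours the making of lactate, measured 776, 402, 720 and 691 CPM in libraries 1 to 4. LDHB, whose subunit favours its oxidation, measured 523, 969, 523 and 553 CPM. In library 2 LDHB had the more counts, and in libraries 1, 3 and 4 LDHA did. LDHA held 29.3% of the LDHA and LDHB counts in library 2 (95% exact interval 28.7% to 29.9%) and 57.7% ± 2.09 in the others (SD, n = 3). Its log2 count ratio over LDHB was 0.02 ± 0.87 over 4 libraries and 0.45 ± 0.12 without library 2. The ratio in library 2, -1.27, lay apart by the gap test. Of the 2 rows that carry the symbol LDHB, the larger (ENSMMUG00000002679) held 10932, 15269, 11041 and 11539 counts and the smaller (ENSMMUG00000019109) 573, 436, 589 and 684. Only the larger was highest in library 2. LDHA, LDHB, GAPDH, PGK1 and PGAM1 have near-identical processed copies in primate genomes, among which Salmon may divide reads, and their values carry that uncertainty.

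**Figure D2:**
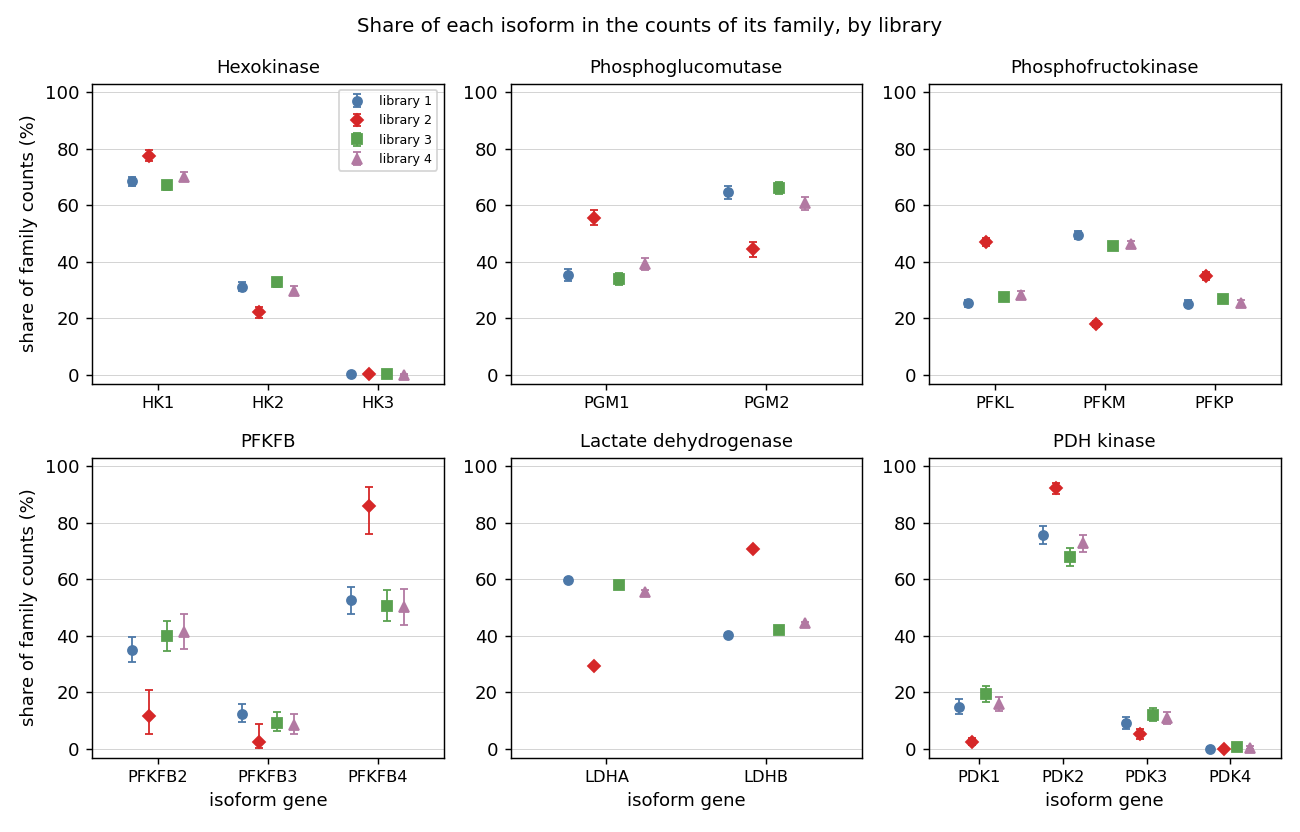
Each point is the share of an isoform gene in the summed counts of its family, in percent, for 1 of the 4 RF/6A libraries, with exact 95% binomial intervals as bars. Library 2 (red diamonds) lies away from libraries 1, 3 and 4 for PFKM and PFKL, for LDHA (29.3% against 55.6% to 59.7%) and LDHB, for PFKFB4 and for PGM1, while the shares of HK1 and HK2 differ less.

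At the entry to mitochondria, the pyruvate dehydrogenase kinases switch the pyruvate dehydrogenase complex off. PDK1, the hypoxia-inducible kinase, measured 5.14, 1.17, 7.23 and 6.33 CPM in libraries 1 to 4. PDK2, the widely expressed kinase, measured 25.98, 43.1, 25.2 and 28.9 CPM. Library 2 was thus lowest for PDK1 and highest for PDK2, and PDK1 held 2.51% of the family's counts there (95% exact interval 1.52% to 3.90%), against 15.0% to 19.4%. PDK3 measured 2.41 CPM in library 2 and 3.14 to 4.45 CPM in the others, and PDK4, the kinase induced by fasting, had 1, 0, 6 and 4 counts. The log2 count ratio of PDK1 over PDK2 was -2.87 ± 1.54 (SD, n = 4) and -2.11 ± 0.27 without library 2, and its value of -5.16 in library 2 lay apart by the gap test. The subunits of the E1 enzyme, PDHA1 and PDHB, kept a nearly fixed count ratio of 0.274 in library 2 and 0.266 to 0.287 in the others (a ratio chosen after the values were seen), although both were higher in library 2, PDHA1 at 71.0 CPM against 35.9 to 42.2 CPM and PDHB at 259 CPM against 135 to 155 CPM.

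The pentose phosphate genes were all expressed. In the oxidative branch, PGLS, the lactonase, measured 28.7, 94.4, 27.9 and 32.2 CPM in libraries 1 to 4, and PGD, which makes the second NADPH, 52.8, 81.7, 54.0 and 55.1 CPM. Library 2 lay apart and high for both, for PGD with TMM but not with plain CPM. In the non-oxidative branch, TALDO1, the transaldolase, measured 186, 564, 190.5 and 211 CPM, and TKT, the transketolase, 366, 549, 403 and 433 CPM. Library 2 was apart and high for TALDO1 under both scalings, while for TKT it was highest with TMM and lay within the range of the others with plain CPM (436 against 395 to 466). Of RPIA and RPE, which interconvert the pentose phosphates, RPIA measured 6.11 CPM in library 2 and 6.41 to 6.96 CPM in the others, and RPE 7.59 CPM in library 2 and 11.7 to 14.2 CPM in the others. H6PD, an enzyme of the endoplasmic reticulum that is not on the list of members, had 0.370 CPM in library 2 and 4.12 to 4.85 CPM in the others.

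Of the 18 isoform pairs set up, 13 gave a count ratio. In 9 of them the ratio had the same sign in 4 of 4 libraries, positive for ALDOA over ALDOC (4.49 ± 0.30 on the log2 scale, SD, n = 4, and 4.35 ± 0.12 without library 2) and negative for the other 8, which reached -8.15 ± 1.77 for PDK4 over PDK2 and -8.14 ± 0.87 for HK3 over HK1 (-7.39 ± 1.09 and -8.24 ± 1.04 without library 2). PDK4 and HK3 had few counts, and with 5 added to the counts instead of 0.5 these means were -6.39 and -7.41. The exceptions were PFKM over PFKL, PFKP over PFKM, LDHA over LDHB and PGM1 over PGM2, in each of which library 2 had the opposite sign to the other 3. Sign-flip permutation tests (exact and two-sided) were run on the 13 pairs. With 4 libraries the most extreme outcome takes 2 of 16 sign patterns, so that none could pass a threshold of 0.05, and those 9 pairs share an adjusted p of 0.181 (Benjamini-Hochberg over the 13 pairs). The test asks whether counts are unequal and takes no account of length. For PFKP over PFKL the mean of -0.15 ± 0.19 was smaller than its SD, although all 4 values were negative, and it was -0.07 ± 0.09 without library 2.

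Set against the whole table, the members were spread over both sides in library 2. Among the 32 members averaging 1 CPM or more, library 2 had a median log2 ratio to the mean of libraries 1, 3 and 4 was 0.47 with TMM, against -0.07 over 12372 genes, and 0.03 with plain CPM, against -0.52 over 12364 genes. Under either scaling 20 of the 32 lay above the median of all genes. GAPDH, PGLS and TALDO1, at 1.65, 1.67 and 1.52 with TMM, lay above the 90th percentile of all genes (1.47) and did so under both scalings. PFKFB2, PFKFB3 and PDK1, at -3.44, -3.74 and -2.41 with TMM, lay below the 10th percentile (-2.29), again under both scalings. By the gap test with TMM library 2 was apart for 7 of the 32 (21.9%, against 33.1% of all genes), high for all 7 (against 21.8%) and low for 0 (against 11.2%). With plain CPM it was apart for 8 (25%, against 28.1%), high for 4 (12.5%, against 11.4%) and low for 4, namely HK1, HK2, PFKM and ENO2 (12.5%, against 16.7%). The share of members with library 2 apart and high was thus near that of the table, and the 4 high under both scalings were GAPDH, LDHB, PGLS and TALDO1 (12.5%, against 11.4%).

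**Figure D3:**
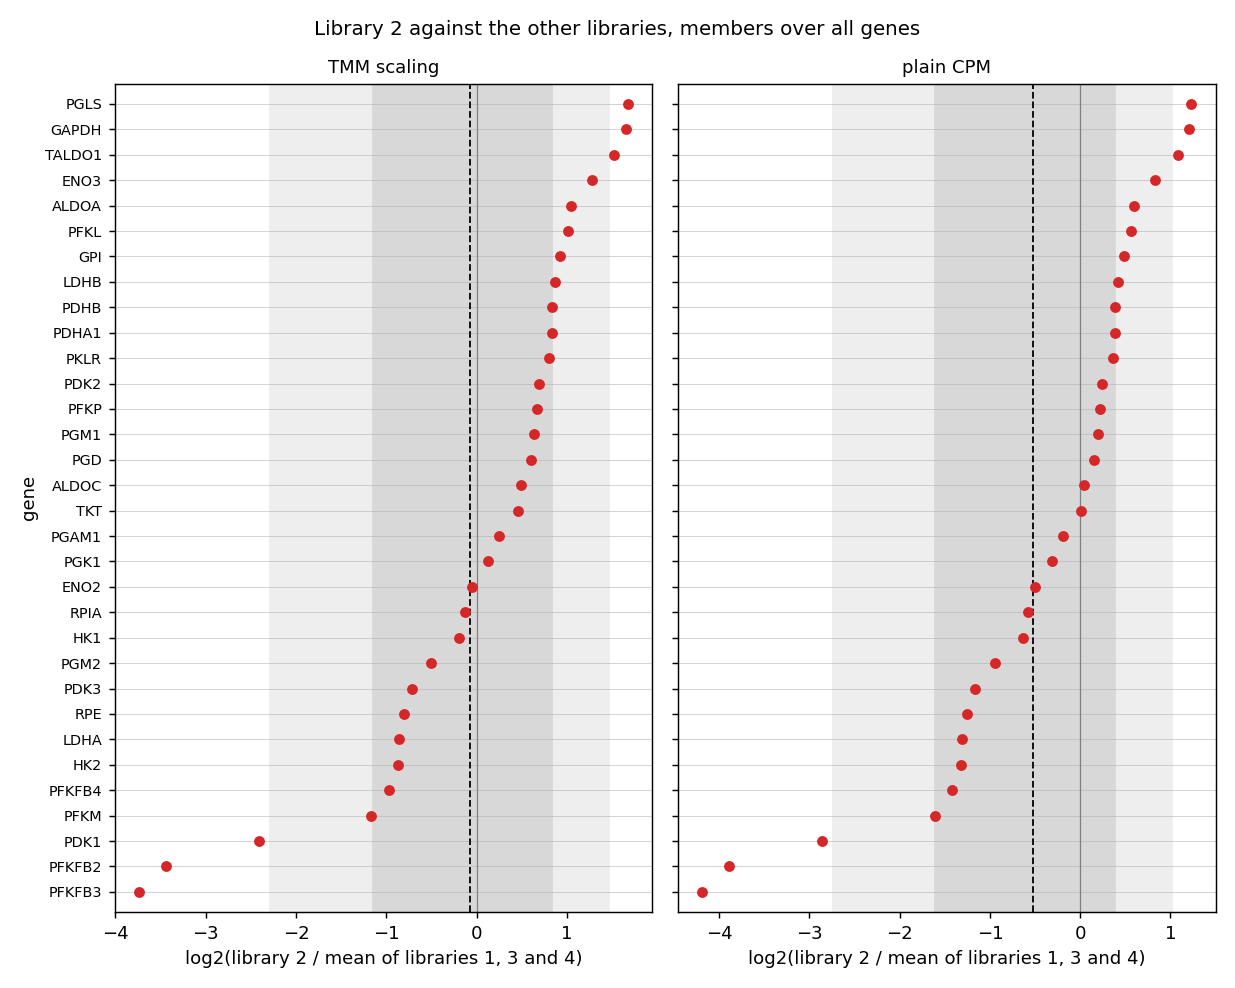
Points give the log2 ratio of library 2 to the mean of libraries 1, 3 and 4 for the 32 members with a mean of at least 1 CPM, with TMM scaling on the left and plain CPM on the right; the dark and light bands span the 25th to 75th and the 10th to 90th percentiles of all genes and the dashed line is their median. PGLS, GAPDH and TALDO1 lie right of both bands and PDK1, PFKFB2 and PFKFB3 left of them.

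Without library 2 the members had a median CV near that of the table, with no matching of the genes for level. The median CV of the 29 expressed members was 7.23% over libraries 1, 3 and 4, against 8.24% for the 11281 expressed rows, and 27.1% over 4 libraries, against 32.7%. PFKFB4 had the highest CV of these members without library 2, at 31.9%. The members together held 0.588%, 0.871%, 0.603% and 0.654% of the counts of libraries 1 to 4. GAPDH alone accounted for 0.399% in library 2 and 0.162% to 0.191% in the others, and the remaining members held 0.472% in library 2 and 0.427% to 0.464% in the others.

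Around the pathway, 5 of 8 glucose transporter genes were expressed (6 without library 2), a share near the 64.2% of all rows with a symbol. SLC2A1, the basal transporter, measured 85.1 CPM in library 2 and 101 to 152 CPM in the others. SLC2A3, a high-affinity transporter, measured 32.9 CPM in library 2 and 193 to 231 CPM in the others, SLC2A10 48.3 CPM in library 2 and 50.8 to 51.9 CPM in the others, and SLC2A12 1.79 CPM in library 2 and 11.3 to 12.7 CPM in the others. SLC2A2, the liver and beta cell transporter, had no count. All 6 genes of lactate and pyruvate transport with a row were expressed. SLC16A3, the transporter MCT4 that exports lactate, measured 194 CPM in library 2 and 59.8 to 70.2 CPM in the others, and SLC16A1, the transporter MCT1, 25.3 CPM in library 2 and 112 to 114 CPM in the others. Library 2 lay apart for each under both scalings, high for SLC16A3 and low for SLC16A1. BSG, their chaperone, measured 242 CPM in library 2 and 155 to 208 CPM in the others. With plain CPM, BSG in library 2 lay within the range of the others, at 192 CPM against 168 to 224 CPM. SLC16A7, the transporter MCT2, measured 3.52 CPM in library 2 and 9.08 to 17.8 CPM in the others.

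Unlike PDHA1 and PDHB, the 6 other genes of the complex and its phosphatases with a count were lowest in library 2. The share of all genes lowest there was not computed. Library 2 lay above the mean of the others for 48.0% of all genes with TMM and 35.4% with plain CPM. By the gap test under both scalings, it was apart and low for 2 of these 6, DLAT and PDHX, against 11.2% of all genes. It was apart and high for PDHB with TMM only and for PDHA1 under neither scaling. Of the 7 listed 5 were expressed (6 without library 2), against 64.2% of all rows with a symbol. DLAT, the E2 core, measured 40.5 CPM in library 2 and 73.6 to 80.01 CPM in the others, and PDHX, which anchors E3, 10.7 CPM in library 2 and 43.9 to 50.04 CPM in the others. DLD, the E3 enzyme, measured 74.8 CPM in library 2 and 80.4 to 88.4 CPM in the others. PDP1, a phosphatase that switches the complex on, measured 7.16 CPM in library 2 and 21.4 to 26.4 CPM in the others. PDPR, a regulator of the phosphatase that was picked after its values were seen, had 3 counts in library 2 and 430 to 588 in the others, and PDHA2, the testis form of E1, had none. Of 8 gluconeogenesis genes 3 were expressed, below the 64.2% of all rows with a symbol. PCK2, the mitochondrial carboxykinase, measured 30.7 CPM in library 2 and 16.7 ± 1.17 CPM in the others (SD, n = 3). PC, pyruvate carboxylase, measured 15.6 and 11.2 ± 0.23 CPM, and SLC37A4, the glucose 6-phosphate carrier, 41.7 and 22.02 ± 1.02 CPM. With plain CPM, PC measured 12.4 CPM in library 2 and 11.9 to 12.3 CPM in the others. The cytosolic carboxykinase PCK1 and the glucose phosphatases G6PC1 and G6PC2 had no count, and FBP1 had 1 count in all.

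**Figure D4:**
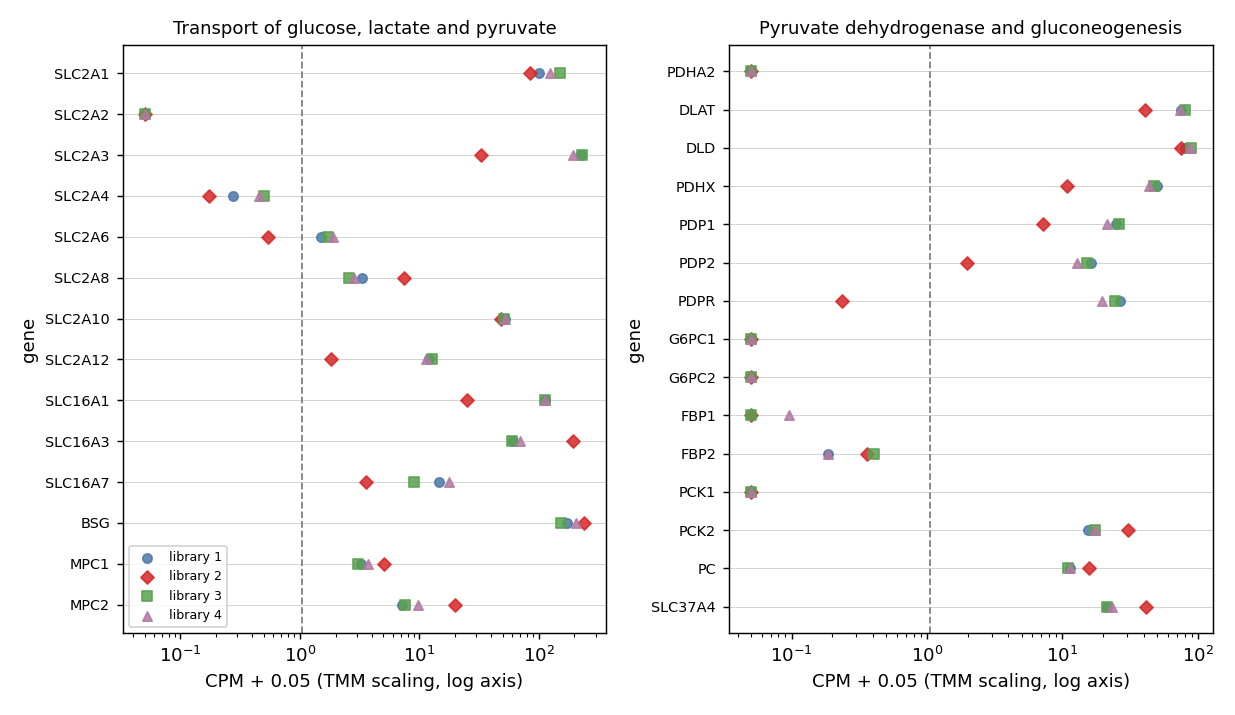
Transport genes are on the left and pyruvate dehydrogenase and gluconeogenesis genes on the right, with 1 point for each RF/6A library, CPM + 0.05 on the log axis and a dashed line at 1 CPM. Library 2 (red diamonds) lies right of the others for SLC16A3 (194 CPM) and left of them for SLC16A1, SLC2A3, PDHX and PDPR, and G6PC1, G6PC2 and PCK1 lie at 0.

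Glycogen genes were expressed in 8 of 9 cases, against 64.2% of all rows with a symbol. UGP2, which makes UDP-glucose, measured 202 CPM in library 2 and 436 ± 39.6 CPM in the others (SD, n = 3). GBE1, the branching enzyme, measured 77.4 CPM in library 2 and 129.9 ± 10.4 CPM in the others. The phosphorylase PYGL measured 109 CPM in library 2 and 89.1 ± 4.89 CPM in the others. With plain CPM the order turned, at 86.1 CPM in library 2 against 93.2 to 101.9 CPM. PYGB measured 46.3 CPM in library 2 and 97.7 ± 6.53 CPM in the others. GYS2, the liver glycogen synthase, had no count. Among 18 further isozymes and steps 9 were expressed (10 without library 2), a share below that 64.2%. PGM3 was among them, at 113 CPM in library 2 and 72.4 ± 4.55 CPM in the others (SD, n = 3). ADPGK, an ADP-dependent glucokinase, measured 38.8 CPM in library 2 and 64.01 ± 0.48 CPM in the others, and TIGAR, a phosphatase acting on fructose 2,6-bisphosphate, 40.96 CPM in library 2 and 19.7 ± 1.92 CPM in the others. PGK2, TKTL1 and TKTL2 had no count.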

How the data were processed

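Total RNA of RF/6A cells was sequenced in 4 libraries on the BGISEQ-500, per the labels. The authors deposited estimated counts per Ensembl rhesus gene, rounded to whole numbers. The submitters' processing notes name Salmon and DESeq2 without versions or roles, and build, annotation and strandedness are not given in the sources used. Symbols came from a table of Ensembl identifiers that matched 14654 of 21314 rows, and rows with the same symbol were summed for members. Counts were scaled with TMM (edgeR 4.0.16, R 4.3.3) and given as CPM. Genes reaching 1 CPM in all libraries were called expressed. Isoform ratios used counts + 0.5 and were to be divided by coding length, but no lengths were at hand, so they stay undivided. Ratios were tested by exact sign-flip permutation. Exact 95% intervals, and limits at 3 counts, cover counting error only, since reads are not independent molecules. The gap test was checked on simulated counts, in which far fewer genes were changed in library 2 than stand apart in it here. The sign-flip test was checked on set values with known answers, and the ratios were not simulated. Members, lists and pairs were chosen with earlier results of these data known. All members are named, with the 4 highest expressed genes of each other pathway list, fixed names, genes of those lists with no count and the highest of each marker list; some genes of these lists are not reported here, and PDPR, NRL, KDR and zero-count markers were named after their values were seen. Alternatives were plain CPM, DESeq2 1.42.0 size factors, thresholds of 0.5 and 2 CPM, pseudocounts, filterByExpr (minimum count 10) and leaving out each library.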

Additional observations from a re-analysis of the deposited data

Results flagged for a closer look

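Dixon's gap test was run on 47 values: 32 member levels, 13 isoform ratios, the share of library counts and the member median. A library lay apart from the other 3 in 11, and by chance about 1 in 20 would. It was library 2 each time, and the 11 are not independent. Among the member levels it was 7 of 32 (21.9%), below the 33.1% of all 12453 genes for which library 2 lay apart. No such background was computed for the isoform ratios. Library 2 was high for GPI (522 CPM), GAPDH (5028 CPM), LDHB (969 CPM), PDHB (259 CPM), PGLS (94.4 CPM), PGD (81.7 CPM) and TALDO1 (564 CPM), and for the log2 count ratio of PFKP over PFKM (0.97). It was low for the log2 count ratios of PFKM over PFKL (-1.39), LDHA over LDHB (-1.27) and PDK1 over PDK2 (-5.16).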

How the results depend on the processing

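The number of expressed members was between 28 and 32 under every alternative tried, against 29. No isoform ratio changed sign with a pseudocount of 5, and with the larger LDHB row alone LDHA over LDHB kept its sign. Leaving out 1 library gave LDHA over LDHB between -0.16 and 0.45, negative without library 1, 3 or 4 and positive without library 2, so its sign over 4 libraries is not settled. The share of counts held by members, 0.679% on average, was 0.450% without GAPDH, 0.812% of the counts of rows with a symbol, and 0.615% to 0.71% with 1 library left out. The member median of 5.40 became 5.89 when only members kept by filterByExpr were used, which removes low members. Members with library 2 apart and high numbered 7 with TMM, 4 with plain CPM and 4 under both (the last added after seeing the data), and those apart and low 0 and 4. No paired analysis was possible because there is 1 group. HK3 and PDK4, with at most 12 and 6 counts in a library, are limited by depth.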
